A study of Bos indicus with 12 samples.

Results

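The RAB genes encode small GTPases of vesicle traffic. A RAB protein is held inactive with GDP in the cytosol, is switched to its GTP form on a membrane by an exchange factor, and there binds effectors that move, tether or fuse vesicles until a GTPase-activating protein switches it off. Each membrane of the cell carries its own RAB proteins, so that RAB5 proteins mark early endosomes, RAB7 proteins late endosomes and lysosomes, and RAB11 proteins recycling endosomes. In blood cells the family is best known for the granules of cytotoxic lymphocytes, mast cells and platelets, and for the maturation of phagosomes.

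The genes were chosen by symbol alone: RAB, a number and at most a letter and a digit. Of 59 such symbols in the symbol table, 55 had an identifier in the count table of 26229 identifiers. RAB1B, RAB39A, RAB39B and RAB43 had none and were not analysed here. Of the 55 genes, 48 passed the filter on low counts, which left 15420 genes for testing. The other 7 genes, RAB25, RAB36, RAB34, RAB9B, RAB15, RAB40B and RAB3B, had at most 13 counts in any library and were not tested. RAB3B, a neuronal and endocrine RAB, had counts in 6 of 12 libraries and 19 counts in all.

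Total RNA from blood of 12 female Bos indicus cows was sequenced after removal of ribosomal RNA. The 4 groups of 3 cows were high-yielding Gir, low-yielding Gir, high-yielding Shweta Kapila and low-yielding Shweta Kapila. All cows were in the second or the third lactation, and the yield class was set within each breed from lactation records, so that a high yield in one breed need not equal a high yield in the other. The labels name mononuclear cells, but the kit they name for extraction takes whole blood.

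Total counts ran from 14.2 to 27.2 M (mega-counts) per library. The 3 largest libraries were Shweta Kapila high 3, low 1 and low 2. In 37 short identifiers without a name lay 13.1% of the counts of Shweta Kapila low 1 and 11.7% of those of low 2, against 4.54% to 9.00% in the other libraries. Levels are given as counts per 1000000 (CPM) of the library size after TMM scaling, a scale on which a gene can be compared between cows but, with no gene lengths used here, not with another gene. All 8 T cell markers looked for were present, with a summed level of 1754 to 4411 CPM. The 6 neutrophil markers present of 8 looked for summed to 1282 to 4238 CPM, and among them CSF3R, the receptor for granulocyte colony-stimulating factor, stood at 479 to 2147 CPM. None of the markers in the table was at 0 in all libraries. On the first principal component of log2 CPM over all genes tested, Shweta Kapila high 1 to 3 scored 62.4, 13.0 and -45.6 and low 1 to 3 scored -104, -63.7 and 54.3, while the Gir cows lay between -5.40 and 30.1. The library labelled high 3 thus lay toward low 1 and low 2, and the library labelled low 3 toward high 1. Whether these labels are exchanged was not tested, and every yield difference in Shweta Kapila rests on the labels as given. In blood as a whole, fewer cells of a type and less RNA per cell cannot be told apart.

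As most genes tested did, the RAB genes varied less between Gir cows than between Shweta Kapila cows. Their summed level was 3641, 3538 and 3867 CPM in Gir high 1 to 3 and 3519, 3473 and 3668 CPM in Gir low 1 to 3. It was 3582, 3712 and 4008 CPM in Shweta Kapila high 1 to 3 and 5395, 3989 and 2943 CPM in Shweta Kapila low 1 to 3. The highest and the lowest of all 12 sums thus belonged to the same group, the low-yielding Shweta Kapila cows.

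Gene by gene, the standard deviation (SD) of log2(CPM + 0.5) within a yield class was larger in Shweta Kapila than in Gir for 43 of 48 RAB genes, or 89.6%, where the share over all genes tested was 80.7%. The median SD of the RAB genes was 0.225 in Gir and 0.442 in Shweta Kapila, and over all genes 0.273 and 0.495. The exceptions were RAB33A, RAB6B, RAB13, RAB38 and RAB42. All were genes of low level, with means over all cows of 1.18, 0.394, 0.787, 0.813 and 4.79 CPM in that order. No test was made of these spreads, which are a description of 6 cows a breed.

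**Figure D1:**
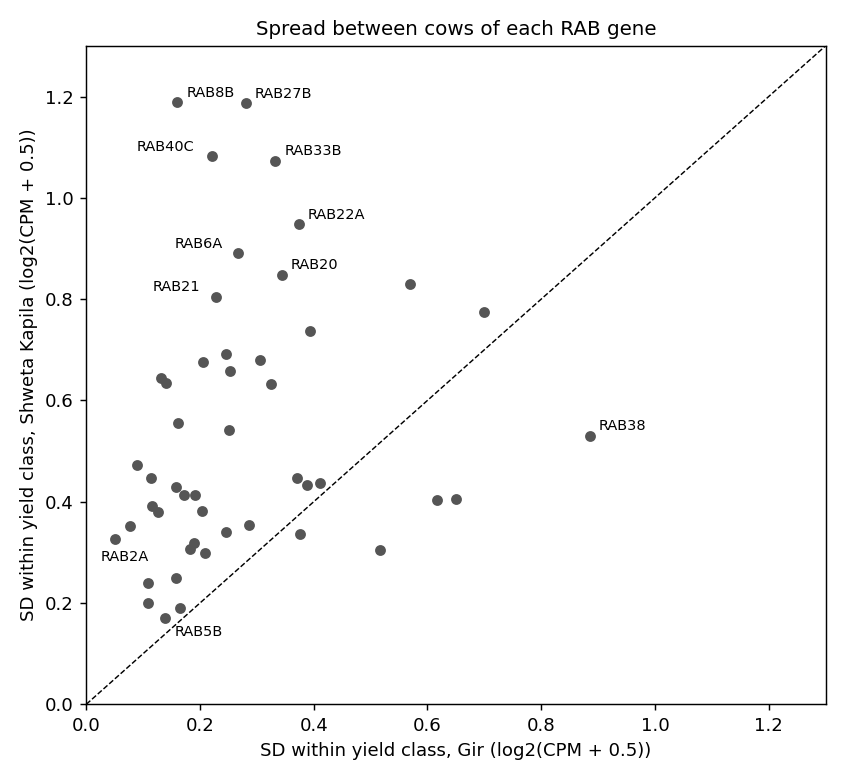
Each point is a RAB gene, with the SD within yield class of log2(CPM + 0.5) over the Gir cows on the x axis and over the Shweta Kapila cows on the y axis, and the dashed line marks equality. Of the 48 genes, 43 lie above the line, with RAB8B (0.160 against 1.19) and RAB27B (0.281 against 1.19) far above it.

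RAB8B, which serves exocytic delivery to the cell surface, was a clear case. It stood at 286, 238 and 291 CPM in Gir high 1 to 3 and at 218, 231 and 270 CPM in Gir low 1 to 3. In Shweta Kapila it stood at 141, 305 and 379 CPM in high 1 to 3 and at 746, 386 and 96.0 CPM in low 1 to 3. The low-yielding Shweta Kapila cows thus held both its highest and its lowest value, 7.77-fold apart, where the 6 Gir cows lay within 1.34-fold.

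The 16 genes that, as RAB8B did, stood above all 6 Gir cows in Shweta Kapila low 1 and below all 6 in low 3 came from most steps of the vesicle route. They were RAB1A, RAB2A, RAB6A, RAB18 and RAB33B, of traffic through the endoplasmic reticulum and Golgi, and RAB5A, RAB21 and RAB22A of early endosomes. RAB11A and RAB14 of recycling, RAB9A of late endosomes, RAB23 of the cilium, RAB8B and RAB10 of exocytosis, and the granule genes RAB27A and RAB27B completed them. They make up 33.3% of the RAB genes tested, while 13.8% of all genes tested had this order.

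The opposite order, below all Gir cows in low 1 and above them in low 3, held for 4 RAB genes, or 8.33%, against 13.6% of all genes. These were RAB11B and RAB35 of recycling, RAB5C of early endosomes and RAB40C, whose protein carries a SOCS box and serves as an adaptor of a ubiquitin ligase. RAB40C stood at 3.82, 8.10 and 22.0 CPM in Shweta Kapila low 1 to 3 and at 33.9, 24.6 and 9.11 CPM in high 1 to 3, while all Gir cows lay below low 3 and above high 3, at no more than 21.4 CPM. Both patterns were picked out after the values were seen and were not tested.

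**Figure D2:**
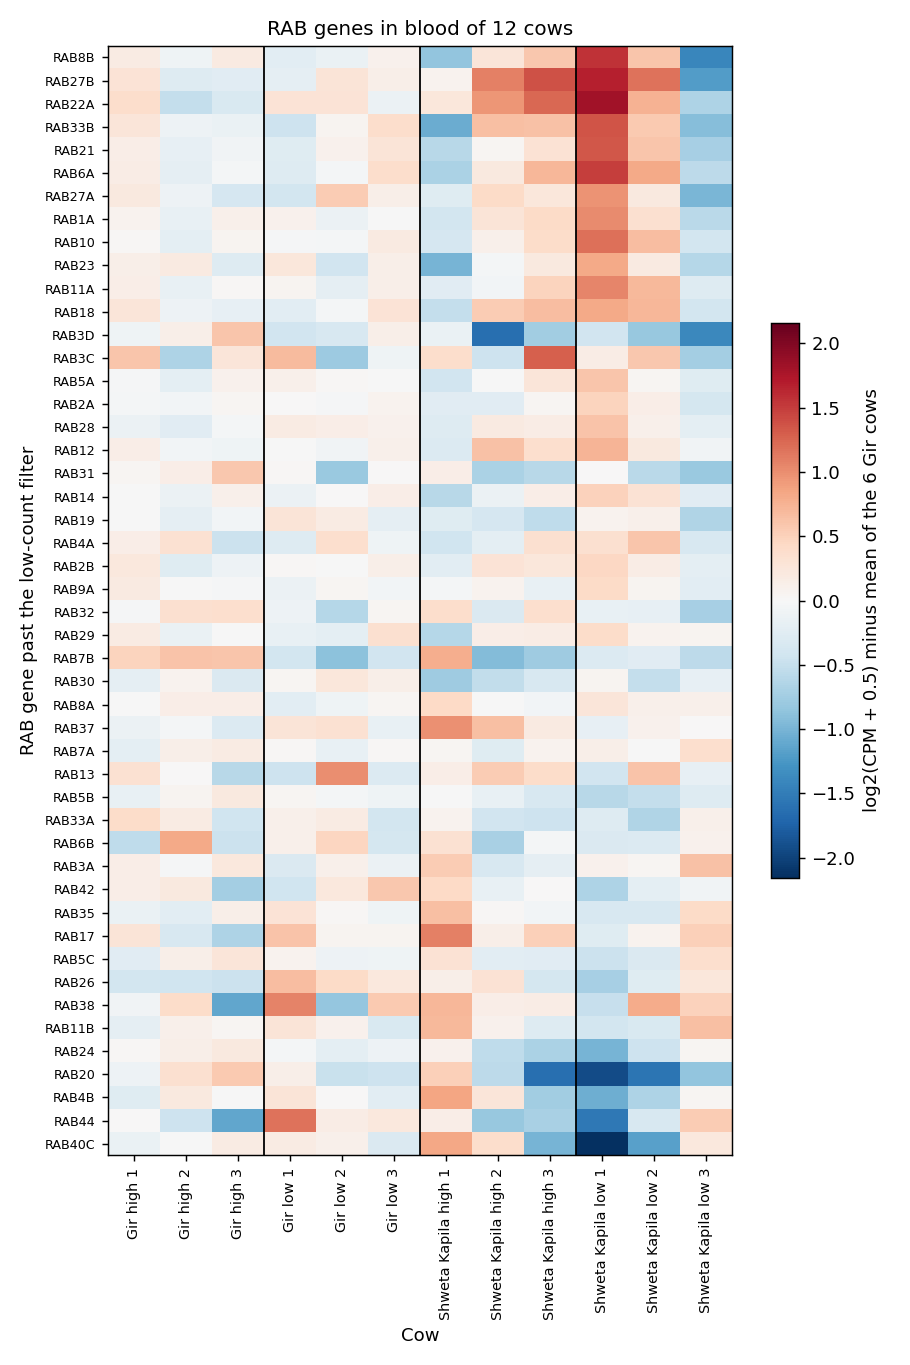
Each row is one of the 48 RAB genes tested and each column a cow; the colour gives log2(CPM + 0.5) minus its mean over the 6 Gir cows, and genes are ordered by Shweta Kapila low 1 minus low 3. The Gir columns are mostly pale, while Shweta Kapila low 1 and low 3 stand at opposite ends, with 16 genes above all Gir cows in low 1 and below them in low 3.

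Shweta Kapila low 1 stood above all Gir cows for 21 of 48 RAB genes, or 43.8%, and low 3 stood below all Gir cows for 22, or 45.8%. The same shares over all genes tested were 33.3% and 22.4%. Low 1 stood below all Gir cows for 10 RAB genes (20.8%, against 33.5% of all genes). Low 3 stood above them for 6 (12.5%, against 23.8%). In low 2, 14 RAB genes stood above all Gir cows (29.2%, against 27.5% of all genes) and 11 below (22.9%, against 27.8%). In high 3, 14 stood above (29.2%, against 24.6%) and 10 below (20.8%, against 23.7%), so both cows lay near the background. In high 1, 17 RAB genes stood below all Gir cows (35.4%, against 26.1% of all genes) and 11 above (22.9%, against 29.7%). In high 2, 10 stood below (20.8%, against 23.9%) and 11 above (22.9%, against 25.3%). The library totals and the share of the short identifiers were highest in low 1, low 2 and high 3. B cell markers, 7 of 8 in the table, summed to 616, 1025 and 2462 CPM in Shweta Kapila low 1 to 3. They summed to 703 CPM in high 1 and to 830 to 1755 CPM in Gir. Other lists were graded over low 1 to 3 as well. T cell markers summed to 2700, 2386 and 1938 CPM there, and cytotoxic markers to 786, 563 and 366 CPM. Their part in these patterns was not tested.

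Ratios between close relatives were compared for 14 pairs, and 13 had a wider range over the Shweta Kapila cows than over the Gir cows. The share over pairs of other genes was not computed, while 80.7% of all single genes tested had a larger SD in Shweta Kapila. Pairs of RAB3 genes share members, as do pairs of RAB5 genes. The exception was RAB3C to RAB3D, with a range of 6.78-fold in Gir and 5.45-fold in Shweta Kapila. RAB3C fell to 0.315 CPM in Gir low 2, and RAB6B to 0.0533 CPM in Shweta Kapila high 2. The ranges of pairs with RAB3C or RAB6B thus rest on few counts. RAB2A to RAB2B (1.40-fold and 1.49-fold) and RAB7A to RAB7B (2.76-fold and 3.24-fold) differed little, and the pairs described next were chosen after their values were seen. The ratio of RAB8A to RAB8B lay between 0.680 and 0.907 in the 6 Gir cows. In Shweta Kapila it was 1.86, 0.634 and 0.493 in high 1 to 3 and 0.312, 0.544 and 2.20 in low 1 to 3, a 7.05-fold range. RAB8A itself varied little, with 167 to 216 CPM in Gir and 187 to 263 CPM in Shweta Kapila.

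RAB11A and RAB11B, the pair of recycling endosomes, had opposite orders over the Shweta Kapila cows of each class. RAB11A stood at 100, 115 and 166 CPM in Shweta Kapila high 1 to 3 and 246, 194 and 97.7 CPM in low 1 to 3. RAB11B stood at 136, 89.1 and 68.9 CPM and at 63.7, 66.1 and 132 CPM in the same cows. Their ratio spanned 1.68-fold over the Gir cows and 5.23-fold over the Shweta Kapila cows.

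RAB4A and RAB4B, of rapid recycling to the surface, had a ratio between 0.431 and 0.841 in Gir and between 0.259 and 1.70 in Shweta Kapila. RAB27A to RAB27B, which serve lytic granules and platelet dense granules, had a ratio of 1.78 to 2.48 in Gir and 0.944 to 2.43 in Shweta Kapila. Close to level were RAB5B and RAB5C, whose ratio spanned 1.12-fold in Gir and 1.64-fold in Shweta Kapila. How reads shared between such relatives were assigned is not known, so these ratios carry that uncertainty, and no test was made of them.

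**Figure D3:**
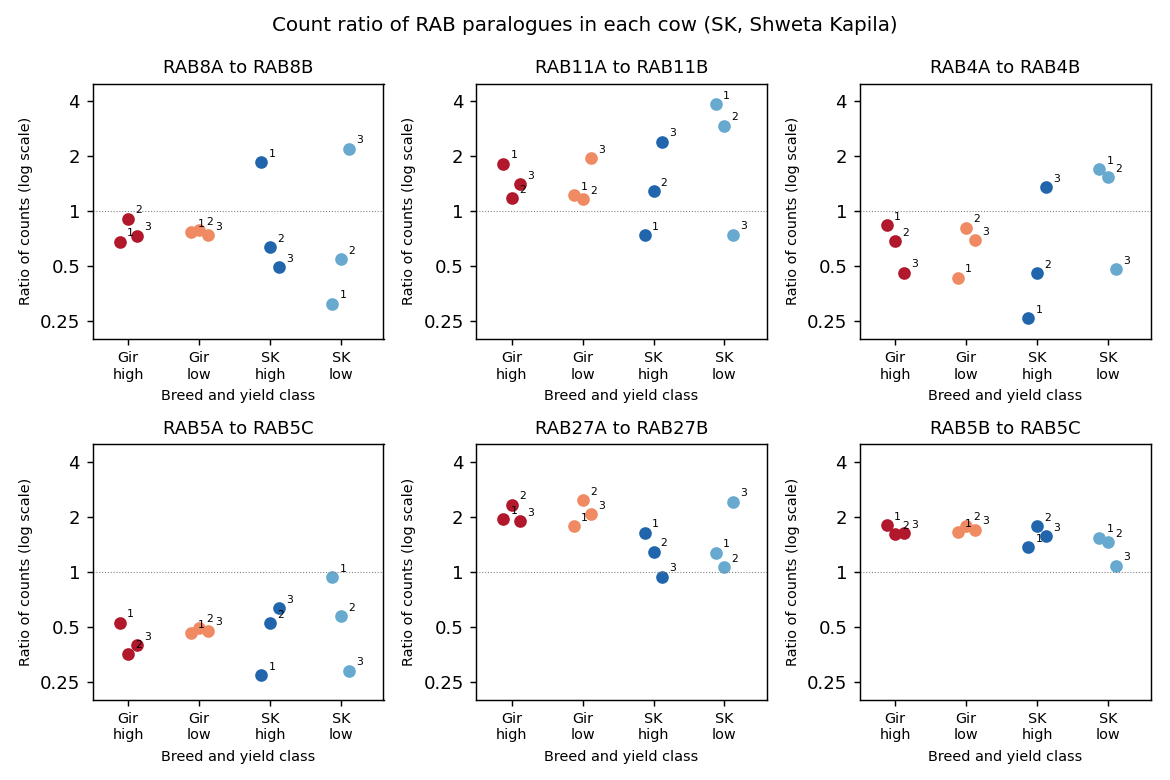
The ratio of CPM values of 6 of the 14 pairs of related RAB genes is shown for each cow on a log axis, with Gir and Shweta Kapila cows apart. Ratios of RAB8A to RAB8B cluster between 0.680 and 0.907 in Gir and run from 0.312 to 2.20 in Shweta Kapila.

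Which RAB genes differed between high-yielding and low-yielding Gir cows was asked first. No RAB gene passed an adjusted p of 0.05 in edgeR's quasi-likelihood test, and neither did any of the 15420 genes (0% called). At an unadjusted p under 0.05 stood 2 RAB genes, RAB7B and RAB26, and 1.89% of all genes. DESeq2 and limma-voom with sample weights called 0 RAB genes as well, with 0.00649% of all genes called by each. The median log2 fold change, high over low, was -0.02 over the RAB genes and -0.02 over all genes, with 20 RAB genes above 0 and 28 below. The median standard error (SE) of a RAB gene was 0.348, from a spread estimated over the cows of both breeds and not over the Gir cows alone. For RAB7B in Gir the SE was 0.40 in this fit. It was 0.19 with Gir fitted alone, with an edgeR adjusted p of 0.310. For RAB37 in Shweta Kapila yield the SE was 0.24 in the shared fit and 0.31 with that breed fitted alone.

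RAB7B (gene identifier 109570610), which moves cargo from late endosomes to the trans-Golgi network and is known from monocytic cells, had the lowest p. It stood at 31.5, 34.7 and 34.2 CPM in Gir high 1 to 3 and at 16.9, 11.9 and 16.7 CPM in Gir low 1 to 3. The groups did not overlap, and the high-yielding cows held about the same level. The log2 fold change was 1.14 ± 0.40 (SE, 3 against 3 cows), with an edgeR unadjusted p of 0.0138 and an adjusted p of 1, and it lay between 1.00 and 1.23 when each cow was left out in turn.

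In Shweta Kapila RAB7B stood at 38.7, 11.5 and 13.0 CPM in high 1 to 3 and at 18.1, 18.8 and 15.1 CPM in low 1 to 3. High 1 lay above every Gir cow and the other high-yielding cows lay below all the low-yielding ones, so no shared direction appeared, and the log2 fold change was 0.28 ± 0.39. The monocyte markers, 5 of 8 in the table and none at 0 in any library, summed to 472 to 695 CPM in high-yielding Gir and 273 to 456 CPM in low-yielding Gir, also without overlap. They summed to 412, 161 and 356 CPM in Shweta Kapila high 1 to 3 and 314 to 361 CPM in the low-yielding cows. The neutrophil markers summed to 2641 to 4238 CPM in high-yielding Gir and 2028 to 2625 CPM in low-yielding Gir, and in Shweta Kapila to 4041 CPM in high 1 against 1282 and 1812 CPM in high 2 and 3. Their part in the values of RAB7B was not tested.

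RAB32, of lysosome-related organelles, and RAB31, which acts between the trans-Golgi network and endosomes, came next on the higher side. RAB32 stood at 22.4, 29.1 and 29.4 CPM in Gir high 1 to 3 and at 21.0, 14.7 and 23.4 CPM in Gir low 1 to 3, with an overlap of the groups. RAB31 stood at 284, 306 and 412 CPM against 282, 159 and 280 CPM, where the groups did not overlap but the nearest cows almost touched. Their log2 fold changes were 0.45 ± 0.28 and 0.48 ± 0.32, each with an edgeR adjusted p of 1. Leaving out a cow moved RAB32 to as little as 0.28 and RAB31 to as little as 0.25.

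On the lower side stood RAB26 and RAB44, followed by RAB37. RAB26, of secretory vesicles, was close to the limit of counting, with 0.290, 0.272 and 0.258 CPM in Gir high 1 to 3 and 1.15, 0.892 and 0.717 CPM in Gir low 1 to 3, where 10 counts equal 0.373 to 0.679 CPM depending on the library. Its log2 fold change was -1.72 ± 0.66 (edgeR unadjusted p = 0.0214, adjusted p = 1). RAB44, a large RAB with EF hands that is known from mast cells, stood at 6.45, 4.56 and 2.68 CPM against 15.1, 7.19 and 7.60 CPM. Its groups did not overlap, and its log2 fold change of -1.13 ± 0.56 ranged from -1.46 to -0.70 when a cow was left out. The markers of basophils, mast cells and eosinophils, 7 of 8 in the table, summed to 102 to 194 CPM in high-yielding and 144 to 209 CPM in low-yielding Gir, with an overlap.

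Groups of Gir cows without overlap were found for 3 RAB genes on the higher side, RAB7B, RAB31 and RAB24, where 5.12% of all genes had such groups. On the lower side they were found for 3, RAB26, RAB44 and RAB28, where the share of all genes was 5.06%. Both counts lie near the background. RAB24, of autophagy, stood at 73.2 to 83.3 CPM against 61.7 to 69.4 CPM, with a log2 fold change of 0.25 ± 0.28.

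**Figure D4:**
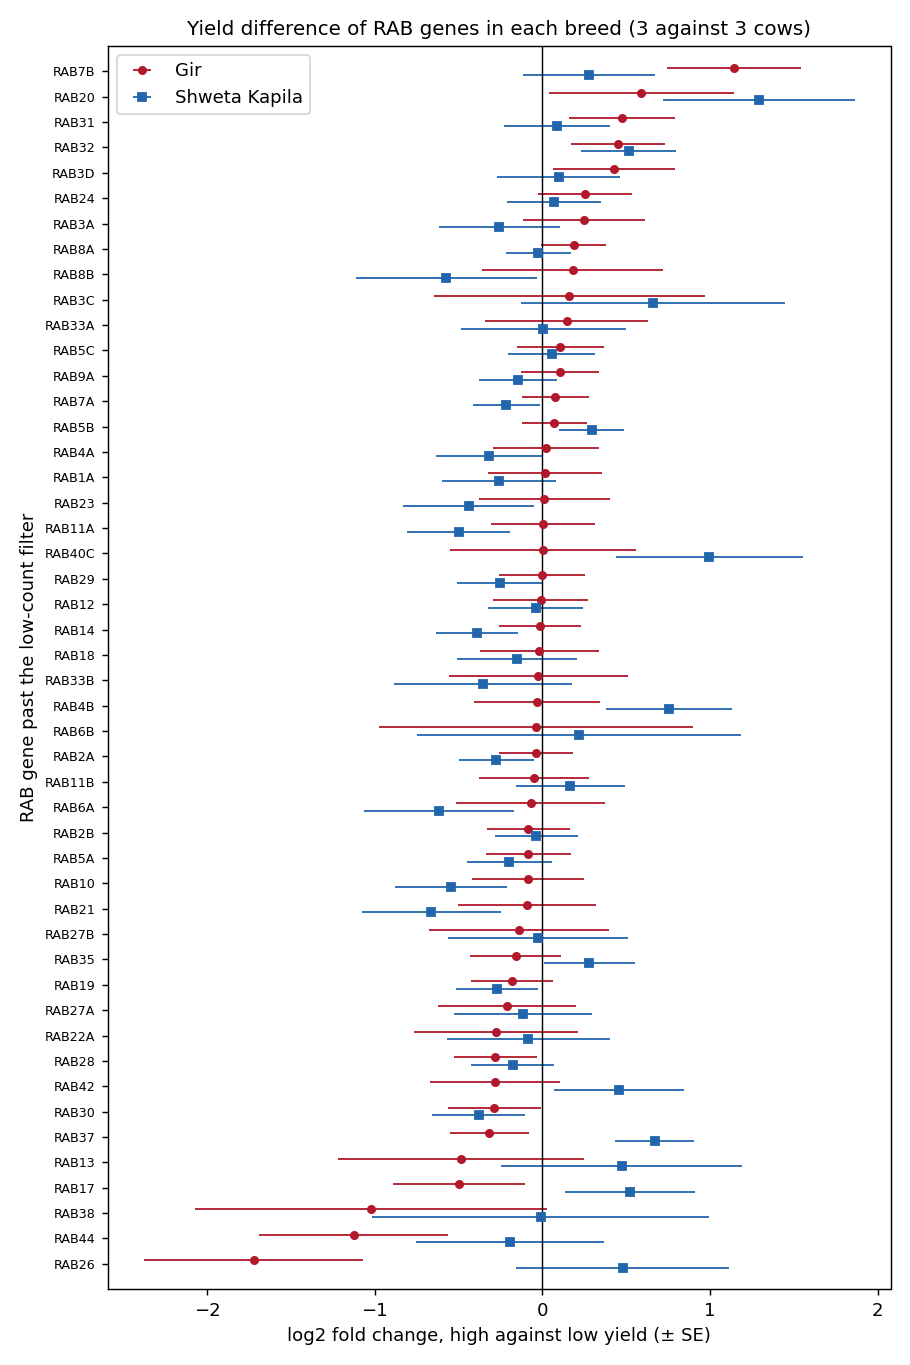
Log2 fold changes of high over low yield with their SE are drawn for the 48 RAB genes in Gir and in Shweta Kapila, ordered by the Gir value. RAB7B (1.14) and RAB26 (-1.72) lie at the ends in Gir, and RAB20 (1.29) lies farthest to the right in Shweta Kapila.

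Between high-yielding and low-yielding Shweta Kapila cows no RAB gene and no other gene passed an adjusted p of 0.05 in edgeR (0% called). At an unadjusted p under 0.05 stood 2 RAB genes, RAB37 and RAB20, and 6.98% of all genes. Both were higher at high yield, as 4.05% of all genes were at that p. DESeq2 called 0 RAB genes and 0.396% of all genes. Limma-voom with sample weights called 6 RAB genes and 25.3% of all genes. These 6 were RAB40C, RAB4B and RAB37, higher, and RAB11A, RAB10 and RAB14, lower. Their count rests on weights that ran from 0.184 for Shweta Kapila low 3 to 6.62 for low 2.

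RAB37 (gene identifier 109573959), which serves the release of secretory granules and is known from mast cells, had the lowest p. It stood at 139, 110 and 80.3 CPM in Shweta Kapila high 1 to 3 and at 61.7, 74.9 and 70.1 CPM in low 1 to 3. The groups did not overlap, with high 1 far above the rest and high 3 near the low-yielding cows. It was the only RAB gene of this comparison whose groups did not overlap on the higher side, where the share over all genes was 3.51%; on the lower side there were 0, against 3.7%. The log2 fold change was 0.67 ± 0.24 (edgeR unadjusted p = 0.0144, adjusted p = 0.655), and it lay between 0.47 and 0.85 when each cow was left out.

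In Gir the values of RAB37 lay the other way, at 64.2, 67.9 and 57.0 CPM in high 1 to 3 and 84.5, 88.4 and 62.8 CPM in low 1 to 3. The groups overlapped through low 3, and the log2 fold change was -0.32 ± 0.24. Summed, the markers of T cells and those of cytotoxic cells had the same order as RAB37 over Shweta Kapila high 1 to 3. Both sums were likewise lower in all 3 low-yielding cows. Singly, CD3D, CD3E, CD6, LCK, PRF1, NKG7, CST7 and CTSW did so, while CD3G, CD5, TCF7, BCL11B, NCR3 and GZMA did not. GZMA stood at 490 CPM in Shweta Kapila low 1, above all 3 high-yielding cows. The T cell markers summed to 4411, 3640 and 3093 CPM in high 1 to 3 and 1938 to 2700 CPM in the low-yielding cows. The 6 cytotoxic markers in the table of 8 looked for, none at 0 in any library, summed to 1685, 1439 and 860 CPM in high 1 to 3 and 366 to 786 CPM in the low-yielding cows. In Gir the T cell markers summed to 1929 to 2076 CPM in high-yielding and 1754 to 2725 CPM in low-yielding cows. Their part in the values of RAB37 was not tested. With the share of the short identifiers as a covariate the yield difference of RAB37 in Shweta Kapila was 0.38.

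RAB20, which takes part in the maturation of phagosomes in macrophages, rested on one cow. It stood at 7.28, 3.20 and 1.27 CPM in Shweta Kapila high 1 to 3 and at 0.934, 1.33 and 2.51 CPM in low 1 to 3. High 3 lay among the low-yielding cows, so the groups overlapped. The log2 fold change of 1.29 ± 0.57 (edgeR unadjusted p = 0.0431, adjusted p = 0.655) was 0.50 without high 1 and 0.29 with the share of the short identifiers as a covariate.

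RAB4B stood at 151, 101 and 49.9 CPM in Shweta Kapila high 1 to 3 and at 40.2, 52.6 and 86.3 CPM in low 1 to 3. High 3 lay among the low-yielding cows and below low 3, and the log2 fold change of 0.75 ± 0.38 was 0.35 without high 1. The 3 genes of lowest p on the lower side were RAB10, RAB11A and RAB21, the last known from the uptake of integrins. Their log2 fold changes were -0.54 ± 0.33, -0.50 ± 0.31 and -0.66 ± 0.41, each with an edgeR adjusted p of 0.655. Without Shweta Kapila low 1 they were -0.16, -0.21 and -0.12, and without low 3 they were -0.87, -0.79 and -1.04. RAB21 stood at 32.9, 51.4 and 62.1 CPM in high 1 to 3 and 126, 75.3 and 30.1 CPM in low 1 to 3, so that its highest and its lowest value were both in low-yielding cows. Without the 3 largest libraries, which leaves low 3 as the only low-yielding cow, the values of RAB10, RAB11A and RAB21 turned to 0.30, 0.14 and 0.49. With the share of the short identifiers as a covariate they turned to 0.26, 0.19 and 0.39.

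Averaged over both breeds, high against low yield gave no call among RAB genes or all genes in edgeR (0% called). At an unadjusted p under 0.05 stood 3 RAB genes, RAB7B, RAB32 and RAB20, and 4.13% of all genes. All 3 were higher at high yield, as 2.28% of all genes were at that p. DESeq2 called 0 RAB genes and 0.0259% of all genes, and limma-voom with sample weights called RAB20 and 8.36% of all genes. No RAB gene had the 6 high-yielding cows all above or all below the 6 low-yielding ones, as 0.169% and 0.227% of all genes did. The yield difference had the same sign in both breeds for 30 of 48 RAB genes, or 62.5%, and for 54.0% of all genes.

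RAB32 came closest to a shared difference. In Shweta Kapila it stood at 29.8, 18.3 and 29.2 CPM in high 1 to 3 and at 20.4, 20.0 and 13.7 CPM in low 1 to 3, where high 2 alone lay among the low-yielding cows. Its log2 fold change was 0.45 ± 0.28 in Gir, 0.52 ± 0.28 in Shweta Kapila and 0.48 ± 0.20 over both (edgeR unadjusted p = 0.0313, adjusted p = 0.874), and it kept to 0.40 to 0.58 when each cow was left out. RAB7B had 0.71 ± 0.28 over both breeds, which was 0.32 without Shweta Kapila high 1. RAB20 had 0.94 ± 0.40, which was 0.54 without that cow. On the lower side RAB30, a Golgi RAB, had -0.33 ± 0.20, RAB44 -0.66 ± 0.40 and RAB26 -0.62 ± 0.46, each with an edgeR adjusted p of 0.874.

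**Figure D5:**
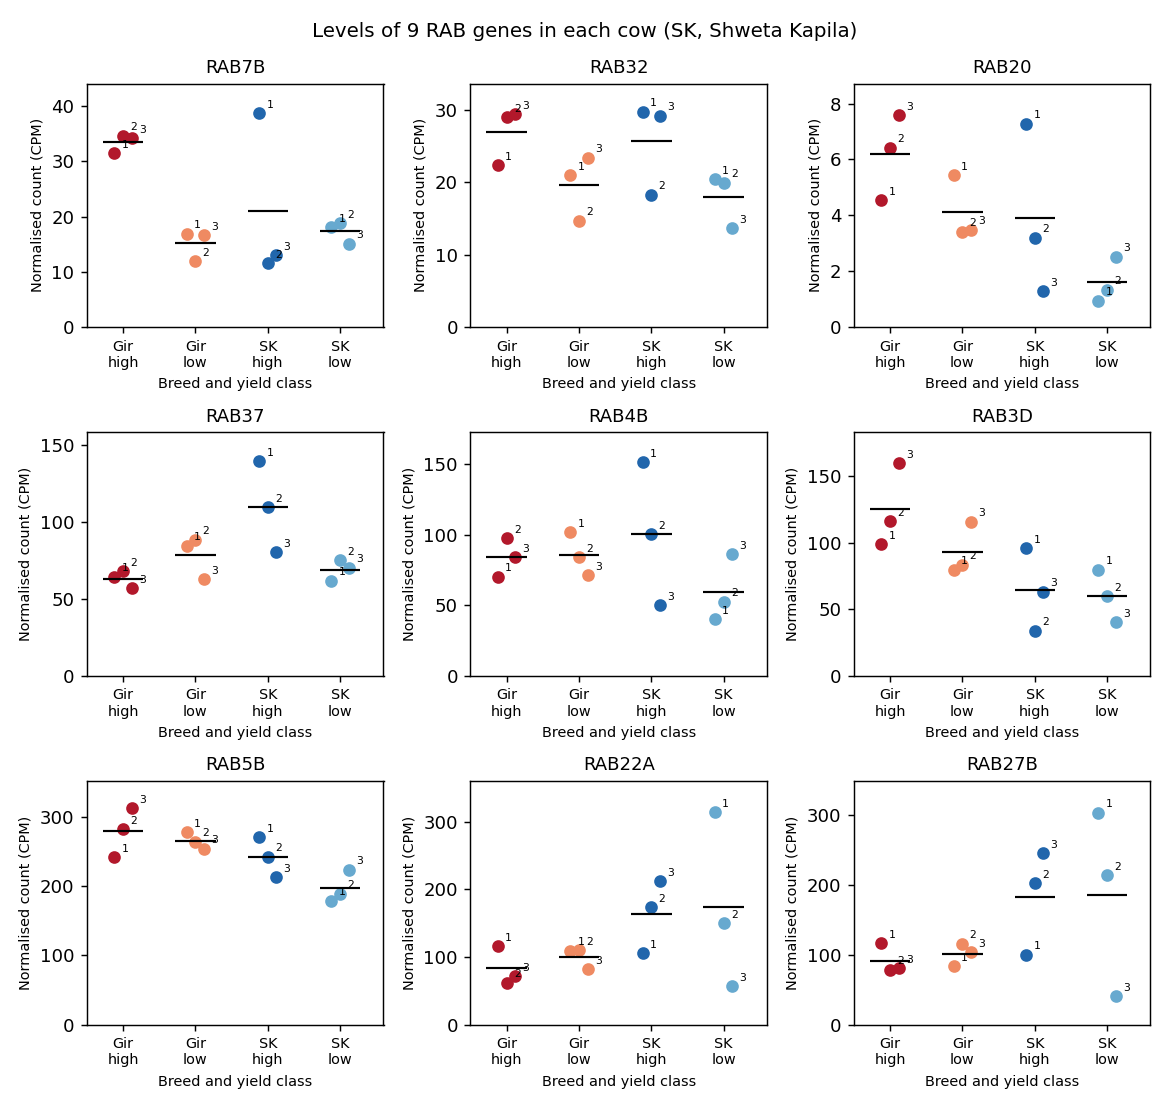
CPM in each cow is drawn for 9 RAB genes with the axis starting at 0, the 4 groups side by side, points numbered by cow and a bar at the group mean. RAB7B is split without overlap in Gir (31.5 to 34.7 against 11.9 to 16.9 CPM), RAB37 in Shweta Kapila (80.3 to 139 against 61.7 to 74.9 CPM), and RAB22A and RAB27B spread most in low-yielding Shweta Kapila.

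Whether the yield difference itself differed between the breeds was tested as the Gir log2 fold change minus the Shweta Kapila one. No RAB gene and no other gene passed an adjusted p of 0.05 in edgeR (0% called), while 2 RAB genes, RAB37 and RAB26, and 3.81% of all genes had an unadjusted p under 0.05. DESeq2 called 0 RAB genes and 0.0584% of all genes. Limma-voom with sample weights called 4 RAB genes, RAB7B, RAB37, RAB26 and RAB40C, and 8.57% of all genes. RAB37 had a difference of -0.99 ± 0.33 (edgeR unadjusted p = 0.0114, adjusted p = 0.955), which lay between -1.17 and -0.79 when each cow was left out. RAB26 had -2.20 ± 0.91 at its low counts, and RAB17, known from epithelial cells, had -1.02 ± 0.55. RAB17 stood at 2.74 to 5.75 CPM in high-yielding and 4.82 to 7.33 CPM in low-yielding Gir, and at 5.12 to 10.4 and 3.78 to 6.85 CPM in Shweta Kapila, with an overlap in each breed.

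On the higher side of the same test stood RAB7B, RAB11A and RAB14. RAB7B had 0.86 ± 0.56, which moved to 1.63 without Shweta Kapila high 1 and to 0.57 without high 2. RAB11A had 0.50 ± 0.44 and RAB14, which acts between endosomes and the Golgi, 0.38 ± 0.35, each with an edgeR adjusted p of 0.955. When each cow was left out, RAB11A ranged from 0.21 (without Shweta Kapila low 1) to 0.80 (without low 3), and RAB14 from 0.19 (without high 1) to 0.57 (without low 3). With the share of the short identifiers as a covariate the values turned to -0.24 for RAB11A and -0.075 for RAB14, and RAB11A had -0.14 without the 3 largest libraries.

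Gir and Shweta Kapila cows, averaged over yield class, differed in no gene at an adjusted p of 0.05 in edgeR (0% called). At an unadjusted p under 0.05 stood 5 RAB genes and 9.57% of all genes. RAB3D, RAB20 and RAB5B were the ones higher in Gir, RAB22A and RAB27B the ones higher in Shweta Kapila. DESeq2 called 0 RAB genes and 1.26% of all genes. Limma-voom with sample weights called 8 RAB genes, these 5 with RAB24, RAB18 and RAB30, and 16.7% of all genes. No RAB gene separated the 6 cows of one breed from the 6 of the other, as 0.266% of all genes did with Gir higher and 0.337% with Gir lower.

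RAB3D (gene identifier 109561616), which serves regulated secretory granules, had the lowest p of any RAB gene. It stood at 99.1, 116 and 160 CPM in Gir high 1 to 3 and 79.7, 83.5 and 116 CPM in Gir low 1 to 3. In Shweta Kapila it stood at 96.0, 33.9 and 63.1 CPM in high 1 to 3 and at 79.9, 60.0 and 40.4 CPM in low 1 to 3. Shweta Kapila high 1 and low 1 reached the lower Gir cows, and the other 4 lay below every Gir cow. As a log2 fold change, Gir over Shweta Kapila, the difference was 0.80 ± 0.26 (edgeR unadjusted p = 0.00965, adjusted p = 0.357), between 0.64 and 1.01 when each cow was left out, and 1.09 without the 3 largest libraries.

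RAB5B, one of the early endosome RABs, stood at 242 to 312 CPM in high-yielding and 254 to 278 CPM in low-yielding Gir. In Shweta Kapila it stood at 270, 242 and 212 CPM in high 1 to 3 and at 179, 189 and 223 CPM in low 1 to 3, with the high-yielding cows 1 and 2 within the Gir values. The log2 fold change of 0.32 ± 0.14 had an edgeR unadjusted p of 0.0374 and an adjusted p of 0.491. RAB20 stood at 3.41 to 7.59 CPM in Gir, and its breed difference was 1.02 ± 0.40 (adjusted p = 0.457 in edgeR), which was 0.49 without the 3 largest libraries.

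RAB22A, of early endosomes, stood at 116, 62.1 and 71.3 CPM in Gir high 1 to 3 and at 110, 110 and 82.0 CPM in Gir low 1 to 3. In Shweta Kapila it stood at 106, 174 and 212 CPM in high 1 to 3 and at 314, 150 and 56.5 CPM in low 1 to 3. Among the Shweta Kapila cows 4 lay above every Gir cow, high 1 lay among them and low 3 lay below them all. Its breed difference was -0.88 ± 0.35 on the log2 scale (edgeR adjusted p = 0.457), and it was -0.50 without low 1.

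RAB27B (gene identifier 109577923) gave a like picture. It stood at 116, 78.4 and 80.4 CPM in Gir high 1 to 3 and 83.5, 116 and 104 CPM in Gir low 1 to 3, and in Shweta Kapila at 100, 202 and 246 CPM in high 1 to 3 and 304, 214 and 41.0 CPM in low 1 to 3. Again 4 Shweta Kapila cows lay above and low 3 lay below all Gir cows. The log2 fold change was -0.94 ± 0.38 (edgeR adjusted p = 0.476). The platelet markers, 7 of 8 in the table, summed to 339 to 572 CPM in Gir and 281 to 476 CPM in Shweta Kapila. The cytotoxic markers summed to 239 to 618 CPM in Gir. In Shweta Kapila they summed to 1685, 1439 and 860 CPM in high 1 to 3 and 786, 563 and 366 CPM in low 1 to 3. This was not the order of RAB27B. Singly, GZMA was highest in low 1 and lowest in low 3 among the Shweta Kapila cows, as RAB27B was. PRF1, NKG7, CST7, CTSW and NCR3 were highest in high 1. The part of either list in the values of RAB27B was not tested.

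With all cows edgeR called neither RAB22A nor RAB27B. Limma-voom with sample weights called both (adjusted p = 0.0194 for RAB22A and 0.00996 for RAB27B). In edgeR the result changed on leaving out Shweta Kapila low 3, which lay below all Gir cows for both genes. Without it, edgeR called RAB22A at -1.09 ± 0.25 (adjusted p = 0.0391) and RAB27B at -1.18 ± 0.23 (adjusted p = 0.0254), the only RAB genes among 447 of 15755 genes called, or 2.84%. Without the 3 largest libraries the values were 0.05 for RAB22A and 0.30 for RAB27B. That setting takes away high 3, low 1 and low 2, which are among the 4 cows above Gir. It leaves low 3 as the only low-yielding Shweta Kapila cow. The part of this in the changed values was not tested.

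By role, no group of RAB genes held a gene past the adjusted threshold in edgeR; the calls of limma-voom with sample weights are those named above. Over all genes tested, 52.6% had lower values at high yield in Gir and 51.7% in Shweta Kapila. Of the 9 genes tested for traffic through the endoplasmic reticulum and Golgi, 7 had lower values at high yield in Gir and 7 in Shweta Kapila, with median log2 fold changes of -0.04 and -0.26. RAB1A, the most abundant of them by CPM, stood at 112 to 135 CPM in Gir and at 83.3 to 253 CPM in Shweta Kapila. Among the 8 early endosome genes 4 had higher values at high yield in Gir and 5 in Shweta Kapila, among them RAB20. Of the 6 recycling genes 2 had higher values in Gir and 3 in Shweta Kapila.

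Of the 7 genes of late endosomes, lysosomes and autophagy 4 had higher values at high yield in Gir and 3 in Shweta Kapila. RAB7A, the core RAB of fusion with lysosomes, was among the steadiest, with 190 to 250 CPM in Gir and 183 to 284 CPM in Shweta Kapila, a range of 1.31-fold and 1.55-fold. Of the 10 exocytosis genes 5 had higher values at high yield in each breed. Of the 5 genes of lysosome-related organelles and granules 1 had a higher value in each breed, RAB32. RAB27A, whose loss causes Griscelli syndrome with failing cytotoxic granules, stood at 149 to 287 CPM in Gir and 99.4 to 386 CPM in Shweta Kapila, with yield differences of -0.21 ± 0.41 and -0.12 ± 0.41. The cilium genes were RAB23 and RAB28, and RAB28 stood at 22.7 to 26.0 CPM in high-yielding and 28.6 to 30.7 CPM in low-yielding Gir.

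The proteins that load, switch and read RAB proteins were followed through a list of 146 symbols, of which 140 were in the table and 131 were tested. None of them passed an adjusted p of 0.05 in edgeR in any of the 5 comparisons. At an unadjusted p under 0.05 stood 1 in Gir yield, 9 in Shweta Kapila yield, 3 in yield over both breeds, 3 in the difference between breeds of the yield effect and 11 between breeds. These are 0.763%, 6.87%, 2.29%, 2.29% and 8.40% of the genes tested on the list, each at or below the share over all genes given above. The median log2 fold changes were 0.04, -0.07, -0.03, 0.15 and 0.03.

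In Gir yield the lowest p belonged to TBC1D8, a protein with the TBC domain of RAB GTPase-activating proteins, followed by LRRK1, a kinase that acts on RAB7, and RILP, an effector of RAB7. TBC1D8 stood at 117, 115 and 165 CPM in Gir high 1 to 3 and at 97.1, 50.6 and 90.5 CPM in Gir low 1 to 3, without overlap, with a log2 fold change of 0.74 ± 0.28 (edgeR adjusted p = 1). LRRK1 had 0.48 ± 0.25 and RILP 0.99 ± 0.53. TBC1D8 also had the lowest p in the difference between the breeds, at 1.27 ± 0.40 (adjusted p = 0.955 in edgeR), followed by TBC1D9 at 1.64 ± 0.72 and TBC1D1 at 0.64 ± 0.29.

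In Shweta Kapila yield it belonged to DENND5B, of the DENN family of exchange factors. DENND5B stood at 7.09, 16.2 and 13.4 CPM in high 1 to 3 and at 27.1, 29.4 and 22.4 CPM in low 1 to 3, and the groups did not overlap. Its log2 fold change was -1.10 ± 0.32 (edgeR unadjusted p = 0.00435, adjusted p = 0.575), against Gir values of 14.0 to 19.6 and 15.5 to 24.6 CPM. TBC1D1 had -0.57 ± 0.20 and INPP5B, a phosphatase that binds RAB proteins, -0.58 ± 0.21. Over both breeds DENND5B had -0.62 ± 0.22, INPP5B -0.40 ± 0.15 and TBC1D5 -0.38 ± 0.17, each with an edgeR adjusted p of 0.874.

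Between the breeds TBC1D9B, another TBC protein, had the lowest p of the list. It stood at 98.4, 133 and 138 CPM in Gir high 1 to 3 and 128, 84.1 and 148 CPM in Gir low 1 to 3, against 98.6, 69.6 and 62.3 CPM and 62.1, 69.0 and 77.7 CPM in Shweta Kapila. Shweta Kapila high 1 alone reached the Gir values, and the log2 fold change was 0.73 ± 0.19 (edgeR adjusted p = 0.279). SYTL2, an effector of RAB27, resembled RAB27B, at 17.8 to 37.9 CPM in Gir and at 43.9, 93.2 and 94.1 CPM in Shweta Kapila high 1 to 3 and 101, 55.4 and 15.3 CPM in low 1 to 3. Low 3 again lay below all Gir cows and the other 5 above them, with a log2 fold change of -1.29 ± 0.38 (edgeR adjusted p = 0.316). DENND1B had -1.05 ± 0.33 (edgeR adjusted p = 0.334).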

How the data were processed

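Blood RNA of 12 cows, each a separate animal, was measured by stranded RNA-seq. The authors deposited expected counts per gene, of which 57.0% were not whole (tolerance 1e-06). Trimmomatic and FastQC were used, per the submitters' processing notes. As for the aligner, counter, strand setting, build and annotation: not given in the sources used here. So reads shared by near-identical or overlapping genes may be split in unknown ways. All sample columns were used.

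Symbols came by identifier from a RefSeq gene table (assembly NIAB-ARS_B.indTharparkar_mat_pri_1.0) that served for naming only (22754 of 26229 matched, 86.8%). Expected counts were rounded and fitted with edgeR 4.0.16 under R 4.3.3: filterByExpr by group (minimum count 10, minimum total 15), TMM scaling, and a robust quasi-likelihood fit of 4 group means over 12 libraries (8 residual degrees of freedom, common biological coefficient of variation 0.381). Tests were 2-sided, with Benjamini-Hochberg adjustment over 15420 genes and a threshold of 0.05. The SE is the log2 fold change over the square root of F. CPM used effective library sizes. The 5 comparisons share one estimate of spread, and several share cows.

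Named are the 3 RAB genes of lowest p on each side of each comparison (18 distinct genes), the more abundant members of each role, the genes under the filter, and the 3 regulators of lowest p in each comparison. Other genes and the patterns over cows were chosen after their values were seen. A choice by level per coding length was planned but not made, since no lengths were used here. The RAB genes, role groups and lists were chosen with earlier results of these data known.

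Alternatives were DESeq2 1.42.0, limma 3.58.1 (voom with sample weights), other scaling and filters, a replicate block, covariates for library total and short-identifier share, and leaving out each cow or the 3 largest libraries. Yield differences were also fitted in each breed alone. The fit over all 12 libraries was tested on simulated counts. Figures were drawn with matplotlib 3.10.9.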

Additional observations from a re-analysis of the deposited data

How the results depend on the processing

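No RAB gene was called by edgeR under any alternative except in the breed comparison when a cow was left out, where the count ran from 0 to 2 (2 without Shweta Kapila low 3). Limma-voom with sample weights called 6 RAB genes in Shweta Kapila yield, 1 in yield over both breeds, 4 in the breed difference of the yield effect and 8 between breeds. Over all genes it called 1 in Gir yield, then 3908, 1289, 1321 and 2580 in the same order, and DESeq2 called 1, 61, 4, 9 and 195. Without the 3 largest libraries edgeR called 3 genes in Shweta Kapila yield, 1 in yield over both breeds and 31 between breeds. With the library total as a covariate it called 1 in Shweta Kapila yield and 53 between breeds, with the short-identifier share 24 between breeds, and with no filter 3 between breeds. Leaving out a cow gave 0 to 2 genes in Shweta Kapila yield, 0 to 1 in the breed difference of the yield effect (1 without Shweta Kapila low 1) and 0 to 447 between breeds (447 without Shweta Kapila low 3). The replicate block gave 1 gene between breeds and 0 RAB genes in every comparison. The replicate numbers did not pair the cows, which are separate animals: over 18 pairs with the same number the correlation of deviations ran from -0.558 to 0.339, over 0.1 in 3, and 2 of 12 cows correlated best with their own number. Some directions reversed. Since edgeR called no RAB gene with all 12 cows, these could only be of differences that it had not called. Among the genes that reversed, limma-voom with sample weights called RAB4B, RAB10 and RAB11A in Shweta Kapila yield and RAB22A and RAB27B between breeds. With the short-identifier share as a covariate, Shweta Kapila yield gave -0.0061 for RAB4B, 0.26 for RAB10, 0.19 for RAB11A and 0.39 for RAB21, and the breed difference of the yield effect gave -0.24 for RAB11A and -0.075 for RAB14. Without the 3 largest libraries, Shweta Kapila yield gave 0.30 for RAB10, 0.14 for RAB11A and 0.49 for RAB21, the breed difference of the yield effect gave -0.14 for RAB11A, and the breed comparison gave 0.047 for RAB22A and 0.30 for RAB27B. The cause was not tested. Of the other values of single genes 612 kept their direction and side of the threshold and 15 newly passed it. With 3 cows a group the median SE of a RAB gene was 0.348 in the yield tests of each breed, 0.246 over both breeds and between breeds, and 0.492 for the breed difference of the yield effect, and even the largest RAB differences were not called at this precision by edgeR with all 12 cows.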
